A study of Mus musculus with 4 samples.

Results

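Neutrophil and macrophage effector genes encode the proteins that take myeloid cells to infected tissue and kill microbes there. This account covers 7 of them, Cxcr2, Ltf, S100a8, Padi4, Ncf4, Clec12a and Mpeg1, in granulocyte-monocyte progenitors (GMPs), from which neutrophils and monocytes of the marrow develop. The members were taken by NCBI gene number from 4 lists of transcripts that carry identifiers outside the reference annotation, here called unannotated transcripts. All 7 genes were found, with 8 such transcripts among the 8219 listed in any library and 7 of the 5058 numbered genes with at least 1. Their annotated transcripts were not analysed here, and no value below is the whole expression of a gene.

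The study sequenced poly(A)-selected RNA from sorted progenitors of wild-type and MST1-deficient mice, with 2 libraries per genotype (WT and KO below, as the labels name them) and 10 mice pooled in each library. The sorted cells of both groups were kept in medium with serum and no drug was given. The allele, strain, age and sex of the mice are not given in the sources used here, and the labels do not say which gene MST1 denotes. Whether the 2 pools of a genotype were handled apart is not stated either, so p-values measure only the spread between these pools, which may be technical. The unannotated transcripts held between 928977 and 1079382 estimated counts per library, and the FPKM values implied library totals between 6913278 and 8518309. FPKM, an estimated count scaled to transcript length and library total, is the level used below wherever genes are compared.

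The proteins serve different steps of a myeloid response. Cxcr2 is the receptor for neutrophil-attracting CXC chemokines and draws neutrophils out of the marrow. Ltf (the iron-binding lactoferrin of specific granules), S100a8 (a subunit of the calcium-binding protein calprotectin), Padi4 (which converts arginine to citrulline in histones and takes part in the release of chromatin traps) and Ncf4 (a phosphoinositide-binding subunit of the phagocyte NADPH oxidase) serve killing and release by neutrophils. Clec12a, an inhibitory lectin receptor of myeloid cells, restrains activation, and Mpeg1, also called perforin-2, forms pores in engulfed bacteria and is best known from macrophages. Granule genes such as Ltf are known to be transcribed mainly in cells more mature than the progenitor.

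The positions and lengths show what kind of transcript was measured. By RefSeq gene positions on GRCm38.p6 (mm10) the genes lie on chromosome 1 (Cxcr2, 74153994 to 74161246), chromosome 9 (Ltf, 111019292 to 111042766), chromosome 3 (S100a8, 90669071 to 90670034) and chromosome 4 (Padi4, 140745508 to 140774239). Ncf4 lies on chromosome 15 (78244164 to 78262582), Clec12a on chromosome 6 (129349783 to 129365303) and Mpeg1 on chromosome 19 (12460770 to 12465285). The lists gave no exon positions for the unannotated transcripts, so where they depart from the annotated exons is not known. In the GENCODE M21 annotation 0 other genes overlapped the 7, on either strand.

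Of the 8 transcripts, 3 were longer than every GENCODE transcript of their gene, 4 lay within the annotated range and 1 was shorter. The Clec12a transcript had 6203 bases against 3233 for the longest of 4 annotated forms, a difference of 2970 bases. The Ltf transcript had 3619 bases against at most 2743, and the S100a8 transcript had 975 bases against at most 498. The S100a8 gene spans 1058 bases in GENCODE, close to the length of this form. Its RefSeq span, given above, is shorter than this form. The Mpeg1 transcript, with 4218 bases, was 116 bases shorter than the single annotated form of 4334 bases. Cxcr2 had a form of 2810 and a form of 2850 bases, between annotated forms of 2220 and 3046 bases. Padi4 had 2931 bases against 403 to 3021, and Ncf4 had 1050 bases against 336 to 1464. No length equalled that of an annotated transcript (0 of 8).

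**Figure D1:**
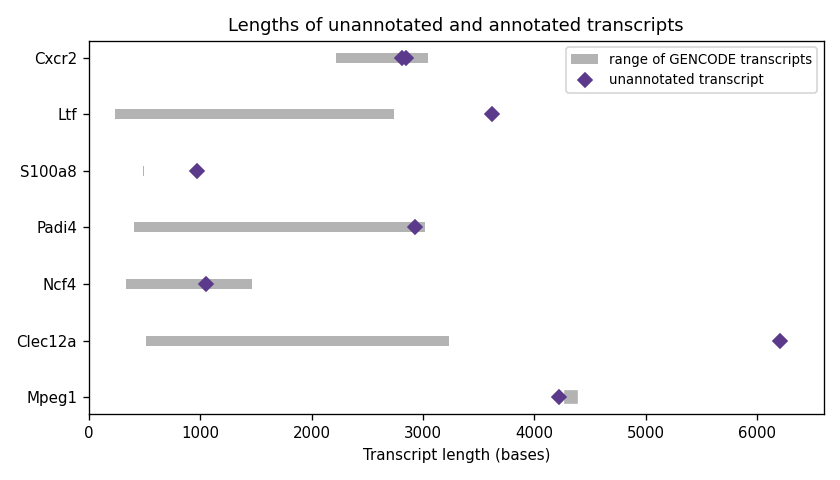
Length in bases of each unannotated transcript (diamonds) and the range of GENCODE M21 transcripts of the same gene (grey bars; a square for the single form of Mpeg1). The diamonds of Ltf (3619), S100a8 (975) and Clec12a (6203) lie to the right of their bars.

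Sequences of the unannotated transcripts were not used here. The promoters of Cxcr2, Ltf, S100a8 and Mpeg1, the 4 genes with the widest ratios between the WT libraries, and of Padi4, which was close to level there, are shown instead. They were chosen after the values were seen. Each line gives 250 bases, 5′ to 3′ on the gene's strand, from RefSeq sequence of GRCm38.p6. For Cxcr2, Ltf, S100a8 and Mpeg1 these end directly before the RefSeq gene start given above. The Padi4 window runs past its gene's start at 140774239 on the - strand. Its distances, like those of Clec12a below, are counted from the end of the window. Capitals mark matches on either strand to GAGGAA (the core bound by PU.1-type ETS factors; TTCCTC on the other strand), TTGCNNAA (a C/EBP-type motif) and TATAAA (the TATA box). The windows are chr1:74153744-74153993 (+ strand), chr9:111019042-111019291 (+), chr3:90668821-90669070 (+), chr19:12460520-12460769 (+) and chr4:140774204-140774453 (- strand).
Cxcr2: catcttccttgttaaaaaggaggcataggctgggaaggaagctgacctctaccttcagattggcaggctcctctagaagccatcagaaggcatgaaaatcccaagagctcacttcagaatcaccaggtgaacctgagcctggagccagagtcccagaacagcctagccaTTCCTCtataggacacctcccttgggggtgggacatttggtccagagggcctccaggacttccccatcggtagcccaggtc
Ltf: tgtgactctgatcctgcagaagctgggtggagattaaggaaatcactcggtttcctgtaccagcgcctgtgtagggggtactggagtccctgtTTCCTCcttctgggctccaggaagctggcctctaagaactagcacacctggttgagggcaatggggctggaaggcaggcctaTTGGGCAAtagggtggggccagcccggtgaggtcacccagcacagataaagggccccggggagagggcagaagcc
S100a8: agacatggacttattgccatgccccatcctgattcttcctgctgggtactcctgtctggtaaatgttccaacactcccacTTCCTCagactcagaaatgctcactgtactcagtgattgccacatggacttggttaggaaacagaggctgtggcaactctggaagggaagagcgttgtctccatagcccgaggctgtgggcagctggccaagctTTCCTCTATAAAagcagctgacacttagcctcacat
Mpeg1: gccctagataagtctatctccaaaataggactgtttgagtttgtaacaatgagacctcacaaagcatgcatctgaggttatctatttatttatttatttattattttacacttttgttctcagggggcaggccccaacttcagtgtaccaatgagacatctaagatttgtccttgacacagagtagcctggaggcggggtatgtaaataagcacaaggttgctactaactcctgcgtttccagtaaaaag
Padi4: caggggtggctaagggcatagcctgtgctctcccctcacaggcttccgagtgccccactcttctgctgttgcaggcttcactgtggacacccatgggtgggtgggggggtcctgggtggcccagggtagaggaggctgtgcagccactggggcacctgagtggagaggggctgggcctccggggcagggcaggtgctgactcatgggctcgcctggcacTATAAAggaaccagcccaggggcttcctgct

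The ETS core stood 81 bases before the start in Cxcr2, 157 in Ltf, and 170 and 36 in S100a8. In S100a8 the nearer ETS core is followed directly by a TATA box 30 bases before the start. Both lie before the RefSeq start but inside the GENCODE span of S100a8, which begins at 90668978. The TATA box of Padi4 lies 31 bases before the end of its window, inside the RefSeq gene span. Ltf held a C/EBP-type match 75 bases before its start. The Mpeg1 window held no match to any of the 3 motifs. Clec12a, not printed, held the ETS core at 61 and 47 bases and the C/EBP-type motif at 140 bases before the end of its window. That window, chr6:129349994-129350243 (+), lies inside the RefSeq gene span, which begins at 129349783. The promoter table matched 6 of the 7 genes. Of those 6 windows, with Padi4 and Clec12a included, 4 held the ETS core, 2 the C/EBP-type motif and 2 the TATA box. The shares were 23.3%, 9.56% and 12.4% among 32851 promoter windows of the same length. The matches are a description of these windows, and the unannotated transcripts may start elsewhere.

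The levels spread over a wide range. Mpeg1 stood highest, with 180.2 ± 54.0 FPKM (SD, n = 4 libraries) and a lowest library of 126 FPKM, above the highest value of any other member. Cxcr2 (the sum of both forms, 25.2 ± 18.6), S100a8 (22.8 ± 8.27), Padi4 (22.3 ± 5.75) and Ltf (14.0 ± 3.84) followed, and the ranges over libraries of neighbours in this order overlapped. Padi4 nevertheless stood above Ltf in each of the 4 libraries. Clec12a, with 3.03 ± 0.393 FPKM and a highest library of 3.33, lay below all libraries of these 4 genes. Ncf4, with 0.698 ± 0.826 FPKM and a highest library of 1.62, lay below all libraries of Clec12a. Among all unannotated transcripts of a library, that of Mpeg1 ranked between 36 and 56 from the top.

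For Cxcr2, the chemokine receptor, the summed FPKM was 50.2 and 21.8 in WT replicates 1 and 2 and 5.35 and 23.5 in KO replicates 1 and 2. The highest library was WT and the lowest KO, and the groups overlapped because KO replicate 2 lay above WT replicate 2. The group means were 36.0 ± 20.1 FPKM (SD, n = 2) and 14.4 ± 12.8 FPKM, and the 4 libraries spanned a 9.39-fold range. The log2 fold change on estimated counts, KO minus WT, was -1.13 with an SE of 0.87, and the adjusted p was 0.992 with edgeR's quasi-likelihood test. Its size rested on single libraries: -0.38 without KO replicate 1, -2.82 without KO replicate 2 and -0.52 without WT replicate 1, none of which passed. Cxcr1, a close relative next to Cxcr2, had no unannotated transcript listed, and how reads common to the 2 genes were divided is not known.

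The 2 Cxcr2 forms differ by 40 bases in length and did not show the same pattern. The 2810-base form had 21.7 and 9.63 FPKM in WT and 2.86 and 5.84 FPKM in KO libraries. Both KO libraries thus lay below both WT ones for the shorter form. The 2850-base form had 28.6 and 12.2 FPKM in WT and 2.49 and 17.7 FPKM in KO libraries, where the groups overlapped. The log2 fold changes were -1.71 (SE 0.67) for the shorter and -0.81 (SE 1.12) for the longer form, with an edgeR adjusted p of 0.999 for each. Leaving out 1 library moved the shorter form between -1.10 (without WT replicate 1) and -2.50 (without KO replicate 2), and the longer form between 0.020 (without KO replicate 1) and -3.07 (without KO replicate 2). Without KO replicate 2 the longer form thus had the lower value of the pair, so the order of the forms rests on that library.

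The longer form took a similar share of the Cxcr2 counts in WT libraries and unequal shares in KO ones. It held 57.2% of 1080 counts in WT replicate 1 (95% Wilson interval 54.3% to 60.1%) and 56.2% of 436 in replicate 2 (51.5% to 60.8%). In KO replicate 1 it held 47.0% of 100 counts (37.5% to 56.7%), and in replicate 2 it held 75.5% of 543 (71.7% to 78.9%). The interval of KO replicate 2 lay above the other 3 intervals, while the group means, 61.3% ± 20.2 (SD, n = 2) and 56.7% ± 0.728 in WT, differed by less than the spread between KO libraries. The intervals cover counting error only, since PCR copies carry no molecular identifiers and reads common to both forms were divided by estimation.

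Of the genes for killing and release, Ltf and S100a8 gave overlapping groups. Ltf had 18.7 and 9.36 FPKM in WT replicates 1 and 2 and 14.7 and 13.3 FPKM in KO ones. Both KO libraries lay between the WT pair, with means of 14.0 ± 6.57 FPKM (SD, n = 2) in WT and 14.0 ± 0.990 FPKM in KO. S100a8 had 35.1 and 17.9 FPKM in WT and 20.1 and 18.0 FPKM in KO libraries. Its WT replicate 1 stood above the other 3 libraries, which lay within 2.16 FPKM of each other. The edgeR log2 fold changes were 0.08 (SE 0.35, adjusted p = 0.994) for Ltf and -0.39 (SE 0.40, adjusted p = 0.992) for S100a8. With the implied library totals in place of TMM factors the Ltf value was -0.0026, so it has no settled sign.

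Padi4 and Ncf4 had both KO libraries below both WT ones. Padi4, the histone-citrullinating enzyme, had 25.5 and 27.7 FPKM in WT and 21.4 and 14.6 FPKM in KO libraries. The WT pair lay close together (26.6 ± 1.53 FPKM, SD, n = 2) and the KO pair was wider (18.0 ± 4.82 FPKM). The log2 fold change of Padi4 was -0.53 with an SE of 0.22 and an edgeR adjusted p of 0.912 (unadjusted 0.0672), so the difference did not pass.

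The unannotated Ncf4 transcript rested on few reads. It had 8.49 and 11.01 estimated counts in WT, or 1.17 and 1.62 FPKM, and was at 0 in both KO libraries. At a floor of 3 counts per library, the zeros allow up to 0.476 and 0.381 FPKM in KO replicates 1 and 2. The mean WT estimate, scaled by the implied library totals, was 3.24-fold above this KO floor, with no allowance for counting error in WT. Ncf4 entered the test only through its WT values, so it had to differ, and its edgeR adjusted p was 0.688 (unadjusted 0.0182).

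The regulator of activation and the pore-forming protein had overlapping groups. Clec12a, the inhibitory receptor, had 3.33 and 2.50 FPKM in WT and 3.33 and 2.97 FPKM in KO libraries. These 4 values, resting on 112 to 161 estimated counts each, spanned a 1.33-fold range, the narrowest of the members. Mpeg1 had 218 and 126 FPKM in WT and 235 and 142 FPKM in KO libraries. In both genotypes replicate 1 stood above replicate 2 by more than the means of the genotypes differed (172 ± 65.0 and 188 ± 65.1 FPKM, SD, n = 2). The edgeR log2 fold changes were 0.18 (SE 0.30) for Clec12a and 0.18 (SE 0.30) for Mpeg1, each with an adjusted p of 0.992.

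**Figure D2:**
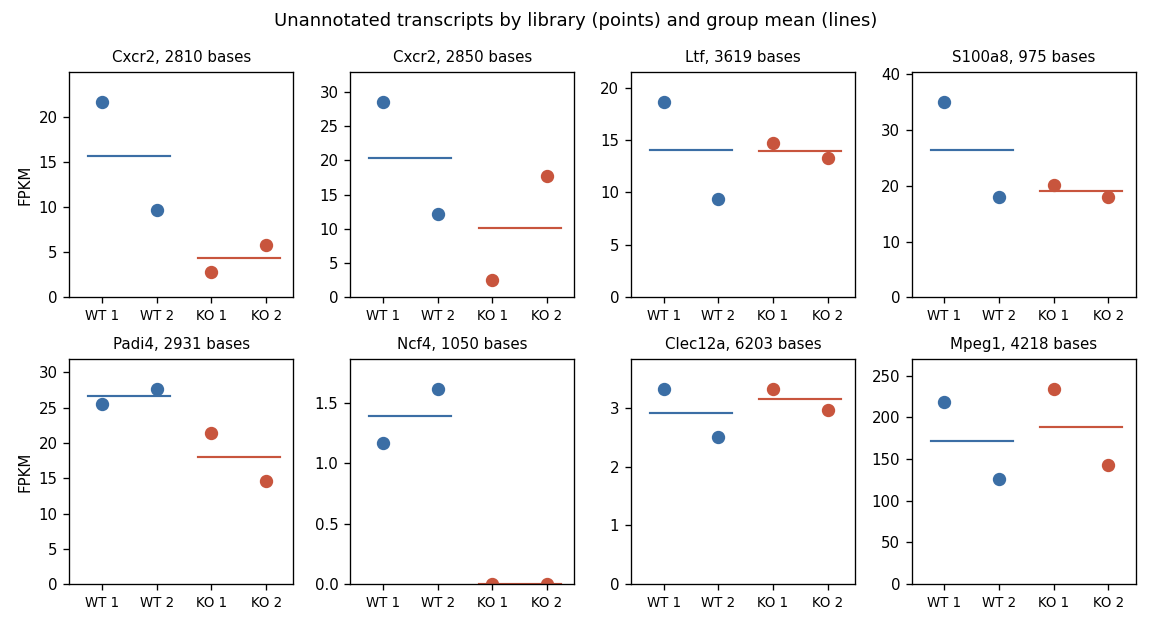
FPKM of the 8 unannotated transcripts in WT (blue) and KO (red) libraries 1 and 2, with group means as lines and an axis from 0 in each panel. The KO points lie below the WT points for the 2810-base Cxcr2 form, Padi4 and Ncf4, and the groups overlap in the other 5 panels.

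The members' counts were read against all features tested. All 7 genes and 8 transcripts met the filter of at least 1 FPKM in at least 2 libraries. With edgeR, 0 of the 7 genes and 0 of the 8 transcripts passed an adjusted p of 0.05, where 0% of 3220 genes and 0% of 4661 transcripts did. Ncf4, which met the filter through WT alone, is left out of the next counts. The shares of all genes and transcripts keep such features, so members and background are not filtered alike. At an unadjusted p under 0.05 stood 0 of the other 6 genes, beside 5.65% of all genes, and 0 of the other 7 transcripts, beside 5.26% of all transcripts. DESeq2 called 46 genes and 100 transcripts in all, none of them a member. Both KO libraries lay below both WT ones for 1 of the 6 genes (Padi4), beside 18.8% of all genes, and for 2 of the 7 transcripts (Padi4 and the shorter Cxcr2 form), beside 19.9% of all transcripts. The opposite arrangement held for 0 of the 6 genes, beside 14.1%, and for 0 of the 7 transcripts, beside 13.7%.

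**Figure D3:**
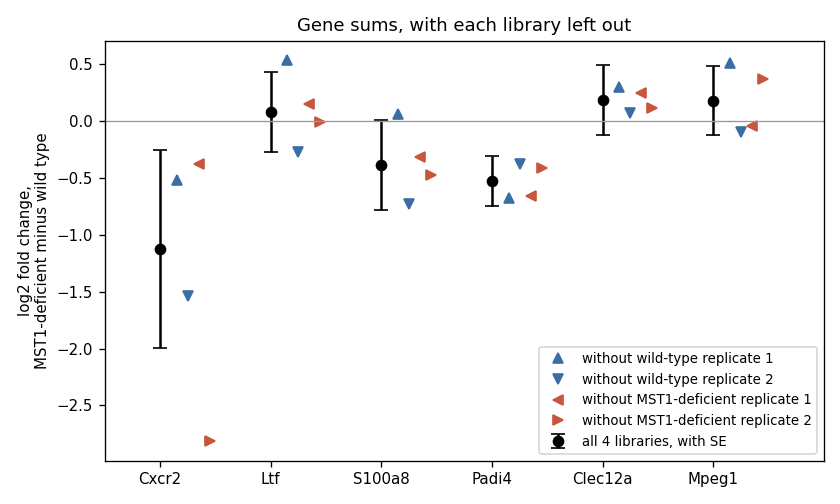
Log2 fold change on estimated counts (KO minus WT) of the summed transcripts of 6 genes, with all 4 libraries (black, bars show the SE) and with each library left out (triangles); Ncf4 is omitted because its KO libraries are at 0. Cxcr2 ranges from -2.82 to -0.38, all Padi4 values lie below 0 and all Clec12a values above it, and those of Ltf, S100a8 and Mpeg1 lie on both sides of 0.

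Whether the genes moved together was read from the difference between the replicates of each genotype. In WT, 5 of the 7 genes had higher values in replicate 1. The ratio of replicate 1 to replicate 2, from counts scaled by the implied library totals, was 2.30 for Cxcr2 (exact 95% interval 2.05 to 2.57), 1.99 for Ltf (1.70 to 2.32), 1.96 for S100a8 (1.55 to 2.47), 1.73 for Mpeg1 (1.66 to 1.80) and 1.33 for Clec12a (1.04 to 1.71). All 5 intervals lay above 1, which makes no allowance for that shift over all genes. The ratios were 0.920 for Padi4 (0.818 to 1.03) and 0.675 for Ncf4 (0.236 to 1.84), whose intervals held 1.

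In KO cells the grouping was another. The ratio was 0.227 for Cxcr2 (0.181 to 0.281), opposite in direction to its WT ratio. Mpeg1, at 1.64 (1.58 to 1.70), was again higher in replicate 1, and so was Padi4, at 1.46 (1.26 to 1.69). Ltf (1.10, 0.951 to 1.27), S100a8 (1.10, 0.849 to 1.42) and Clec12a (1.12, 0.885 to 1.42) had intervals that held 1. The pair of Ltf and S100a8 therefore had nearly the same ratio in each genotype. In KO cells this ratio was also near that of Clec12a, with no interval of these genes apart from 1. Cxcr2 went with Ltf and S100a8 in WT but not in KO cells. These intervals cover counting error between single libraries and test no condition.

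The same differences were set beside those of all genes tested. On the log2(FPKM + 0.5) scale, replicate 1 minus replicate 2 had a median of 0.12 over the 3220 genes in WT and 0.28 in KO cells, and it exceeded 1 in size for 12.6% and 20.5% of genes. Among all genes the WT difference of Cxcr2 (1.19) stood at percentile 94.0, that of Ltf (0.96) at 91.1, that of S100a8 (0.95) at 90.8 and that of Mpeg1 (0.79) at 86.8. The WT differences of Clec12a (0.35), Padi4 (-0.11) and Ncf4 (-0.34) stood at percentiles 67.4, 31.5 and 17.5. In KO cells Cxcr2 (-2.04) stood at percentile 1.89, outside the range from the 5th to the 95th, and Mpeg1 (0.72) at 75.8. Ltf (40.8), S100a8 (42.1), Clec12a (41.0) and Padi4 (66.5) lay in the middle of the KO percentiles.

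**Figure D4:**
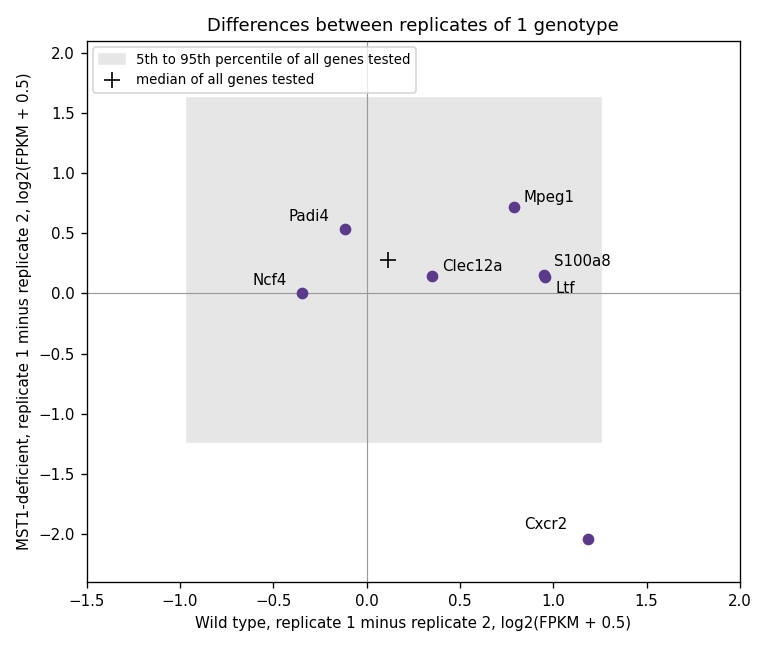
Replicate 1 minus replicate 2 in log2(FPKM + 0.5) for each gene sum, WT on the x axis and KO on the y axis; the grey area spans the 5th to 95th percentile of 3220 genes on each axis and the cross marks their medians. Ltf and S100a8 nearly coincide, and Cxcr2 stands apart at 1.19 and -2.04.

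Markers of other cell types also differed between the libraries. The summed FPKM of the B lineage genes with an unannotated transcript (3 of 9: Cd79a, Pax5 and Igll1) was 10.2 and 0.76 in WT and 4.38 and 3.43 in KO libraries, with WT replicate 1 highest as for Cxcr2, Ltf and S100a8. The T and NK cell sum (5 of 13 genes) was 37.1 and 28.5 against 19.2 and 12.8 FPKM, and the sum for eosinophils, basophils and mast cells (6 of 11 genes) was 156 and 197 against 116 and 129 FPKM. The erythroid sum (4 of 11 genes) was 23.6 and 30.7 against 18.5 and 7.84 FPKM, and the dendritic cell sum (2 of 10) was 9.17 and 4.64 against 4.17 and 3.41 FPKM. In these 4 sums both KO libraries lay below both WT ones, as for Padi4, 1 of the 6 genes counted above. Gene by gene, this held for 5 of 5 tested eosinophil, basophil and mast cell genes. It held for 1 of 3 T and NK cell, 1 of 3 erythroid and 1 of 2 dendritic cell genes, beside 18.8% of all genes. Of the 3 tested T and NK cell genes, 1 had both KO libraries above, beside 14.1% of all genes. The megakaryocyte and platelet sum (4 of 8) was 38.2 and 46.5 against 46.6 and 35.3 FPKM. Their part in the members' values was not tested. In RNA from pooled cells, fewer cells of a type and less RNA per cell cannot be told apart.

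The labelled cell type could be checked on few genes. Of 15 progenitor markers, Kit, Fcgr2b, Gfi1 and Csf3r had an unannotated transcript, with sums between 94.4 and 121 FPKM in the 4 libraries. Mpo, Elane, Prtn3, Ctsg and Cd34 had none listed. Of the other defining markers, Cd3e, Ms4a1, Gata1, Epx, Pf4 and Siglech had none listed either, which says nothing about their annotated transcripts.

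Other genes of the same functions gave few unannotated transcripts. In 9 lists with 127 further genes, 22 were listed and 14 tested, and 0 passed with edgeR (lowest adjusted p 0.911, 0 at an unadjusted p under 0.05). The fold change was positive for 9 and negative for 5, with a median log2 value of 0.19 beside 0.01 over all 3220 genes. Both KO libraries lay below both WT ones for 2 of the 14 (Olfm4 and Gsdmd), beside 18.8% of all genes. They lay above for 1 of the 14 (Clec5a), beside 14.1% of all genes. The genes named next are the most abundant tested ones of each list.

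Among the chemoattractant and growth factor receptors, 4 of 13 were listed. Csf3r, the receptor for the granulocyte growth factor G-CSF, had 68.4 and 31.1 FPKM in WT and 58.2 and 51.5 FPKM in KO libraries. The libraries of Csf3r stood in the same order as those of Ltf. Ccr2, the receptor that draws monocytes from the marrow, had 43.1 and 29.4 FPKM against 52.5 and 23.4 FPKM, with replicate 1 above replicate 2 in both genotypes, as for Mpeg1.

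Of 17 genes of specific and gelatinase granules, 3 were listed, Ltf among them. Cd177, a surface protein held in specific granules, had 47.2 and 23.2 FPKM in WT and 36.4 and 51.9 FPKM in KO libraries. Olfm4, a granule glycoprotein, had 37.7 and 28.5 FPKM against 8.41 and 17.7 FPKM, with no overlap between the groups (log2 fold change -1.21, SE 0.50, edgeR adjusted p = 0.911). None of 11 primary granule genes was listed (0 of 11).

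Of the 9 genes of the oxidase list, Ncf4 and Cybc1, a chaperone of the oxidase core, were the 2 listed. Cybc1 had 0 and 3.60 FPKM in WT and 0 and 1.48 FPKM in KO libraries. In the list of deiminases and chromatin trap genes, 3 of 9 were listed. Gsdmd, a pore-forming protein of inflammatory cell death, had 20.0 and 14.3 FPKM against 13.2 and 7.30 FPKM, without overlap (log2 fold change -0.69, SE 0.29, edgeR adjusted p = 0.912).

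S100a8 was the 1 gene listed of 13 S100 genes, and its partner S100a9 was not listed. Of 16 myeloid lectin genes 5 were listed and 4 tested, Clec12a among them. The 4 tested had positive fold changes with TMM factors, beside 51.1% of all genes. They did so too with RLE size factors and implied library totals, which use the same 4 libraries. The summed FPKM of the 5 listed was 11.05 and 7.49 in WT and 9.93 and 14.97 in KO libraries, highest in KO replicate 2. Their median log2 value was 0.64 with TMM or RLE factors and 0.53 with implied totals, and 0 passed. Clec4e, a sensor of mycobacterial glycolipid, had 4.99 and 3.54 FPKM against 3.87 and 6.30 FPKM, with KO replicate 1 between the WT libraries. Clec5a, an activating receptor, had 1.44 and 1.06 FPKM against 1.72 and 3.99 FPKM. For Clec5a both KO libraries lay above both WT ones (log2 fold change 1.32, SE 0.66, edgeR adjusted p = 0.942). Of 30 macrophage and monocyte genes, 6 were listed and 2 tested. Prf1, the perforin of cytotoxic lymphocytes and a relative of Mpeg1, had 3.78 and 5.62 FPKM against 7.03 and 2.03 FPKM.

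Of 20 genes on the list of regulators, 5 were listed and 3 tested. Gfi1, a repressor needed for granulocyte fate, had 16.6 and 29.0 FPKM in WT and 20.0 and 46.7 FPKM in KO libraries. In both genotypes replicate 2 of Gfi1 was higher, the reverse of Mpeg1 and Ccr2. Runx1 had 3.88 and 3.21 FPKM against 3.72 and 4.22 FPKM.

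For each member, the 2 tested genes with the most similar pattern over the 4 libraries were found by the root mean square difference of centred log2(FPKM + 0.5) values. For Ltf these were Glrx (0.031) and Pafah1b3 (0.038), and Glrx had 18.8 and 9.65 FPKM in WT and 15.1 and 12.96 FPKM in KO libraries. For Padi4 they were Sppl2b (0.013) and Samd3 (0.036), for Clec12a Parvb (0.011) and Sap130 (0.026), for Mpeg1 Spen (0.016) and Abca7 (0.020), and for S100a8 Thap7 (0.038) and Slc7a6os (0.084). Abca7, a lipid transporter, had 32.8 and 19.4 FPKM against 35.8 and 22.1 FPKM. Matches were looser for Cxcr2, with Rubcn (0.20) and Cfap126 (0.22), both at 0 in KO replicate 1, and for Ncf4, with Zfp324 (0.13) and Col5a1 (0.14). With 4 values per gene, such likeness is a description of these libraries.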

How the data were processed

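RNA-seq of 2 wild-type and 2 MST1-deficient libraries was analysed (genome build mm10, per the submitters' processing notes; aligner, assembler, estimator and annotation not given in the sources used here). Per the file headers, the authors deposited expected counts and FPKM for each unannotated transcript, with its length. Missing transcripts were set to 0, and values were summed per NCBI gene number, of which 5051 of 5058 matched a RefSeq symbol.

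Expected counts were rounded and tested with edgeR 4.0.16 (quasi-likelihood, TMM, 2-sided, R 4.3.3), with features of at least 1 FPKM in at least 2 libraries and Benjamini-Hochberg adjustment over all of them. The reported SE is the fold change divided by the root of the F statistic. Alternatives were DESeq2 1.42.0, limma 3.58.1 on log2(FPKM + 0.5), other pseudocounts, size factors and filters, a replicate block and each library left out. The fits were tested on simulated data. An exact 2-sided permutation test of 2 against 2 cannot go below 0.333, and none was run.

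Named genes were the 7 members, the 2 most abundant tested genes of each functional list and the 2 nearest patterns per member. Members and lists were chosen with earlier results of these data known. 1 marker gene is not reported here and was left out of its list.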

Additional observations from a re-analysis of the deposited data

How the results depend on the processing

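None of the 7 genes or 8 transcripts passed an adjusted p of 0.05 under any alternative run. The lowest was 0.0605, for the Ncf4 transcript with limma and a pseudocount of 0.1, and Ncf4 met the filter through WT alone. The unadjusted p of the shorter Cxcr2 form depended on the method. It was 0.0322 with DESeq2 and 0.0428 with limma on log2(FPKM + 0.5), but 0.0641 with the main edgeR test and 0.0656 with edgeR and RLE size factors. Over all features, where edgeR called 0 transcripts and 0 genes (245 and 182 at an unadjusted p under 0.05), DESeq2 called 100 transcripts and 46 genes. Limma called 5 and 5 on log2(FPKM + 0.5), 0 and 9 with a pseudocount of 0.1, and 6 and 5 with a pseudocount of 1. Requiring values above 0 in all 4 libraries gave 2 and 1, and left out Ncf4. Of 133 member values under alternatives that kept all libraries, 131 kept their direction. The exceptions were Ltf with implied library totals, at -0.0026 for the gene sum and -0.0023 for the transcript (log2). The replicate block gave 0 calls and changed no member's call, with a Cxcr2 log2 fold change of -1.46. Replicate numbers pair no samples by the labels, and the within-genotype differences of the 3220 genes had a Pearson correlation of 0.127 between genotypes. Each left-out library gave 0 calls at both levels. Leaving out 1 library moved 10 of 56 member values across 0, and the cause was not tested. Over these, log2 fold changes ranged from -0.27 to 0.54 for the Ltf sum and from -0.29 to 0.57 for its transcript, from -0.73 to 0.057 for the S100a8 sum and from -0.74 to 0.087 for its transcript, from -0.10 to 0.51 for the Mpeg1 sum and from -0.11 to 0.54 for its transcript, and from -3.07 to 0.020 for the 2850-base Cxcr2 form. Ncf4 rests on at most 11.01 counts per library, so depth limits its values. Ncf4 did not meet the filter without either wild-type library.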
